A study of Homo sapiens with 4 samples.

Results

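The aminoacyl-tRNA synthetases, the enzymes that join each amino acid to its tRNA, were followed in the human pre-B leukaemia line Nalm-6, in cells labelled as knockouts of, or as overexpressing, a subunit of the INO80 chromatin remodeling complex. Members were the probes whose RefSeq accession led to a current gene symbol of the synthetase pattern, namely a 1-letter amino acid code followed by ARS and an optional 1, 2, A or B. This gave 35 genes on 43 probes, of 18199 named genes and 41000 probes on the array. By suffix, 19 genes on 24 probes were cytosolic, and 16 genes on 19 probes, with the suffix 2, were mitochondrial. All 35 genes that the pattern finds in the reference table had at least 1 probe, and 8 genes had 2.

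The study set cells with disrupted Arp5 or Arp8 genes, which encode actin-related proteins of INO80, against wild-type cells to ask which transcripts depend on the complex. There were 4 cultures with 1 array each, namely WT cells, a culture labelled Arp8 OE and the Arp8 KO and Arp5 KO lines. All were Nalm-6, both knockouts were made by gene targeting with both Arp5 alleles disrupted in Arp5 KO, and each knockout was 1 line. The labels gave heme, an inducer of oxidative stress, at 20 uM for 12 hours in the titles and protocol of every sample, but no heme in the treatment field of both knockouts. In the source field Arp8 KO was with heme and Arp5 KO without. Genotype and treatment of the knockouts therefore cannot be told apart. The gene that encodes Arp5, ACTR5, was 4.27 log2 below WT on the Arp5 KO array. Both probes for ACTR8, which encodes Arp8, were 0.68 and 0.53 below WT on the Arp8 KO array and still well above background there, and whether they lie in the disrupted part of the gene is not given in the sources used here. The same probes differed from WT by -0.01 and 0.02 on the array labelled Arp8 OE. No direction of Arp8 overexpression is drawn from that array.

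A synthetase of the cytosol serves translation on cytosolic ribosomes, and a separate set of enzymes, encoded in the nucleus and imported, serves translation of the few proteins encoded by mitochondrial DNA. The enzymes fall into a pair of unrelated structural classes, class I and class II, and several cytosolic ones are held together with scaffold proteins in the multisynthetase complex. The GARS1 and KARS1 genes encode the enzyme of both compartments and are counted here as cytosolic, as their suffix has it. Cytosolic synthetases are also known targets of ATF4, the transcription factor induced by amino acid shortage, which binds C/EBP-ATF response elements whose core is commonly written TGATGNAA.

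Part of this link could be read in the promoter letters. In the RefSeq windows of build GRCh38.p14, which run from 250 bases before to 50 after a start site, 28 of the 35 members had an entry, and AARS2, LARS1, VARS1, VARS2 and YARS1 were among those with none. The core TGATGNAA was searched on both strands. It stood in 3.62% of all 35116 windows, and at least 1 window of 4.46% of all genes held it. Among members it was found for 8 of 28 genes, with 7 of 15 cytosolic genes and 1 of 13 mitochondrial genes. The 7 cytosolic genes all belonged to the list of known ATF4 targets, of which 9 had a window, and 0 of the 6 other cytosolic genes with a window held it. The list rests on the same biology as the motif, so the overlap is a description. A match is a run of letters and does not show binding. The 8 stretches are shown because they hold the core, each of 30 bases on the strand that reads TGATGNAA, with the core in capitals.
TARS1, chr5:33440956-33440985, minus strand: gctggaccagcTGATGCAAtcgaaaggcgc
GARS1, chr7:30594834-30594863, minus strand: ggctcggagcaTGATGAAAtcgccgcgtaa
IARS1, chr9:92293692-92293721, plus strand: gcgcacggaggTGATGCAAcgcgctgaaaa
CARS1, chr11:3057407-3057436, plus strand: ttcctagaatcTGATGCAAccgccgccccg
MARS1, chr12:57488053-57488082, minus strand: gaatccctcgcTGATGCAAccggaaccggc
AARS1, chr16:70289675-70289704, plus strand: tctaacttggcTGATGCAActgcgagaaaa
NARS1, chr18:57621804-57621833, minus strand: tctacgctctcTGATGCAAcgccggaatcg
YARS2, chr12:32756076-32756105, minus strand: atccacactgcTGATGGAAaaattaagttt

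Besides the core itself, the position and orientation of the match were alike in most of these genes. In 6 of the 7 cytosolic genes the core lay within 50 bases of the start site, from 26 bases upstream in GARS1 to 14 bases downstream in NARS1, and in AARS1 it lay 180 bases upstream. Over all 15 cytosolic genes with a window the share with a core within 50 bases was 40.0%, beside 1.39% of all genes. Of all genes 1217 held the core anywhere in a window, and 379 of these held it within 50 bases. In YARS2, which charges tyrosine in mitochondria, the core lay 190 bases upstream. The core read on the strand opposite to the gene in AARS1, CARS1, GARS1, IARS1, MARS1 and TARS1, and on the gene's own strand in NARS1 and YARS2. The array values of these genes are given below with their function groups.

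Each level below is log2 of a probe's signal over its array's 75th percentile, so that 0 is the signal of that percentile. With 1 array per group there was no replicate of a culture and no test, and differences are given as values. The only error that could be measured was that between spots of the same probe on an array. It gave an SD of 0.08 for a log2 difference, and 2 SD were 0.17. It does not hold the spread between cultures. For dim probes, with levels below -2, this SD was 0.138 to 0.169. All 43 member probes were well above background on every array but that of Arp8 OE, where 42 were, with MARS2 the exception. The processed signals of members, which are background-subtracted and not scaled, ran from 20.7 to 22000, and no member spot was an outlier or saturated. All 10 pre-B marker genes were well above background on the 4 arrays, against 0 of 5 T cell, 1 of 4 myeloid, 0 of 3 erythroid, 1 of 3 epithelial and 0 of 2 fibroblast marker genes. On at least 1 array the latter counts were 1, 3, 1, 1 and 1. The pre-B markers were not level over the arrays. In Arp8 KO against WT CD22 gave -2.58, VPREB1 -1.26 and DNTT 1.78, and the other pre-B markers were within 2-fold. In RNA from a whole culture, fewer cells of a kind and less RNA per cell cannot be told apart.

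No synthetase passed 2-fold in any comparison. The count was 0 of 43 probes higher and 0 lower in Arp5 KO against WT, where 1.69% of all tested probes were past 2-fold higher and 2.01% lower. It was likewise 0 and 0 in Arp8 KO against WT, with 3.37% and 4.35% of all tested probes, and in the array labelled Arp8 OE against WT, with 2.96% and 2.15%. Between Arp8 KO and Arp8 OE it was 0 and 0 again, with 1.64% and 3.78%. All members but MARS2 were well above background on every array, and of the 21783 such probes fewer passed 2-fold. These were 132 higher and 156 lower in Arp5 KO against WT. They were 537 and 603 in Arp8 KO, 347 and 212 on Arp8 OE, and 208 and 512 in Arp8 KO against Arp8 OE. With 43 probes, zeros beside such shares are no result about the members.

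At 1.5-fold a few members were counted. In Arp5 KO 0 member probes were higher and 2 lower than WT, beside 4.15% and 4.69% of all tested probes. In Arp8 KO 2 were higher and 4 lower, beside 10.0% and 11.2%. On the Arp8 OE array 1 was higher and 2 lower than WT, beside 7.93% and 5.67%, and between Arp8 KO and Arp8 OE 2 were higher and 2 lower, beside 6.59% and 9.44%. Of the 21783 probes well above background on every array, 555 were higher and 556 lower in Arp5 KO against WT. These counts were 1907 and 1960 in Arp8 KO, 1319 and 852 on Arp8 OE, and 1208 and 1643 in Arp8 KO against Arp8 OE. The range of a probe over the 4 arrays had a median of 0.30 for cytosolic and 0.34 for mitochondrial members, against 0.42 for all probes well above background on every array. Within 2 technical SD of WT lay 60.5% of member probes in Arp5 KO, 34.9% in Arp8 KO and 48.8% on Arp8 OE, beside 52.2%, 32.7% and 38.3% of all tested probes. In Arp8 KO against Arp8 OE the shares were 37.2% and 36.6%. Of all probes well above background on every array, the shares in these 4 comparisons were 56.1%, 34.9%, 40.7% and 38.0%. Beside these the member share was equal in Arp8 KO against WT and lower in Arp8 KO against Arp8 OE.

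**Figure D1:**
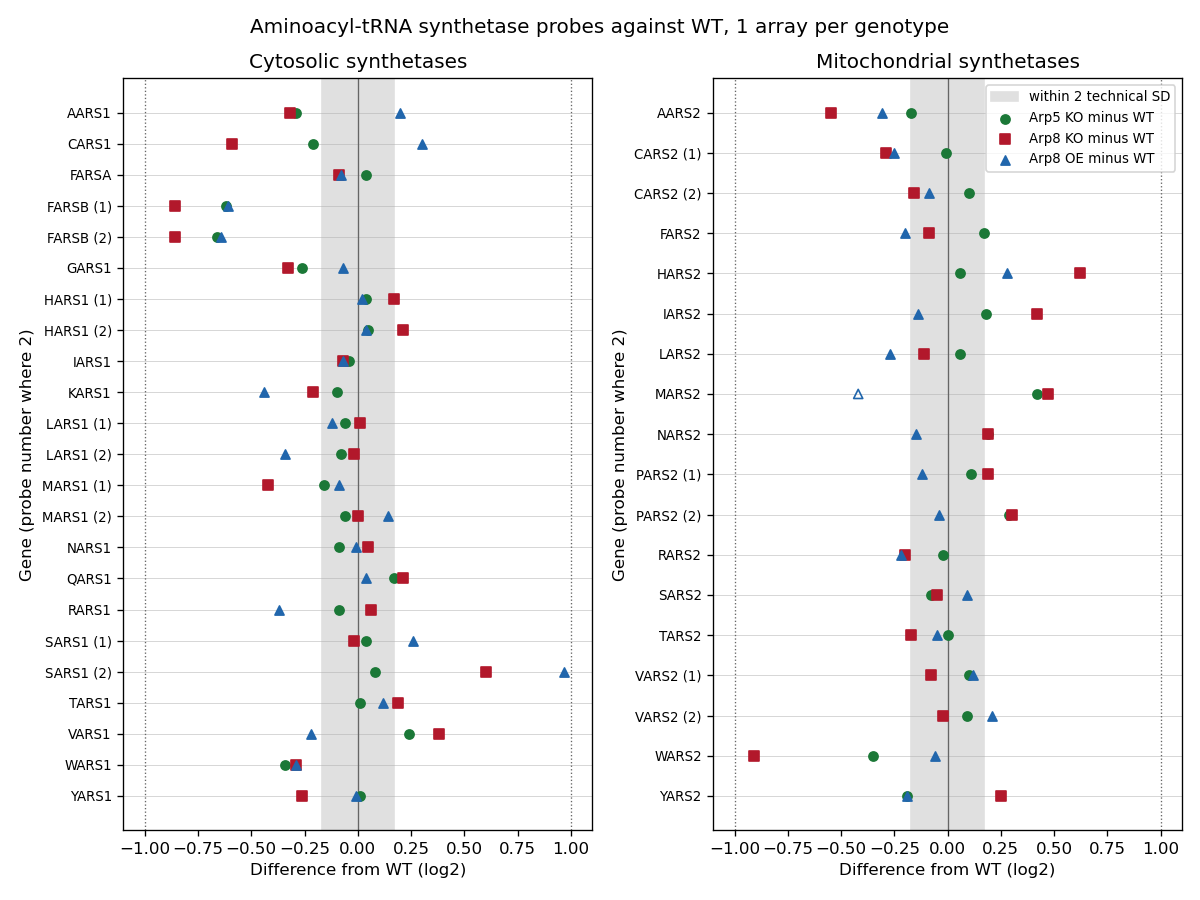
Difference from WT on the log2 scale (x axis) of the synthetase probes (y axis) on the array of each other genotype, 1 array each. Genes with 2 probes are numbered, the gray band spans 2 technical SD (0.17), dotted lines mark 2-fold and the open symbol (MARS2) is a bound. Both FARSB probes lie between -0.61 and -0.86, and the second SARS1 probe reaches 0.97.

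The phenylalanine enzyme of the cytosol gave the clearest contrast within 1 protein. This enzyme is built from 2 kinds of subunit, the alpha subunit encoded by FARSA and the beta subunit encoded by FARSB. The first FARSB probe had a level of 4.46 on the WT array, 3.84 on Arp5 KO, 3.60 on Arp8 KO and 3.84 on Arp8 OE. The second FARSB probe read 0.49, -0.17, -0.37 and -0.15 in the same order. On both probes WT was the highest array and Arp8 KO the lowest, and Arp5 KO and Arp8 OE lay within 0.02 of each other. Against WT the probes gave -0.62 and -0.66 in Arp5 KO. They gave -0.86 on both in Arp8 KO (1.81-fold lower) and -0.61 and -0.64 on the Arp8 OE array. The 3 comparisons share the WT array, and Arp8 KO against Arp8 OE, which does not use it, gave -0.25 and -0.22. For FARSA the levels were 2.97, 3.01, 2.88 and 2.89, and its differences from WT of 0.04, -0.09 and -0.08 were within 2 technical SD. FARS2, the single-chain mitochondrial phenylalanine enzyme, had levels of 0.58, 0.75, 0.49 and 0.38.

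Tryptophan enzymes were lower in the knockouts in both compartments. For WARS2, the mitochondrial tryptophan enzyme, the level was -0.13 on WT, -0.48 on Arp5 KO, -1.03 on Arp8 KO and -0.18 on Arp8 OE. WT and Arp8 OE did not differ beyond technical error, Arp5 KO was 0.35 below WT, and Arp8 KO was 0.91 below it (1.87-fold), the lowest of any member in that comparison. Arp8 KO was also 0.85 below Arp8 OE. WARS1, the cytosolic enzyme and a gene also known to be induced by interferon, had levels of 2.24, 1.90, 1.95 and 1.95, so WT stood above the other 3 arrays, which lay within 0.05 of each other.

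Cysteine and alanine enzymes of the cytosol took opposite sides of WT on the Arp8 KO and Arp8 OE arrays. The CARS1 levels were -0.32 on WT, -0.53 on Arp5 KO, -0.91 on Arp8 KO and -0.02 on Arp8 OE. Arp8 KO was thus 0.59 below and Arp8 OE 0.30 above WT, and Arp8 KO was 0.89 below Arp8 OE (1.85-fold), the lowest member of that comparison. On the Arp8 KO array 2 spots next to CARS1 were of probes over 2-fold brighter there than on the other 3 arrays, and their part in the value was not tested. On that array 1 such spot also lay beside the NARS2 probe, the second HARS1 probe, the second MARS1 probe and the first CARS2 probe. AARS1 gave 1.99, 1.70, 1.67 and 2.19, that is 0.32 below WT in Arp8 KO, 0.20 above it on Arp8 OE and 0.52 between them. GARS1, for glycine, read 1.03, 0.77, 0.70 and 0.96, lower in both knockouts and within technical error of WT on Arp8 OE. CARS1, AARS1 and GARS1 carry the TGATGNAA core printed above. So do TARS1, YARS2 and NARS1, which were highest in Arp8 KO, NARS1 within technical error of WT.

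Histidine enzymes share a promoter region. HARS1, the cytosolic enzyme, and HARS2, the mitochondrial one, lie head to head on chromosome 5, and 84 bases separate their RefSeq start sites. These bases are shown because both genes start from them, HARS1 to the left and HARS2 to the right (GRCh38.p14, plus strand). They hold 0 matches to TGATGNAA.
HARS1 and HARS2, chr5:140691371-140691454: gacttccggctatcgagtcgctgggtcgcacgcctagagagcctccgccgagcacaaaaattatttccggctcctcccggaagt

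Both genes lay above WT on each of the other arrays, with HARS2, which has 1 probe, further above it in Arp8 KO and on Arp8 OE. HARS2 had levels of 1.78 on WT, 1.85 on Arp5 KO, 2.41 on Arp8 KO and 2.06 on Arp8 OE. Arp8 KO was 0.62 above WT, the highest member difference there (1.54-fold), and Arp8 OE was 0.28 above. The 2 HARS1 probes read 2.71 and 2.45 on WT, 2.75 and 2.50 on Arp5 KO, 2.88 and 2.66 on Arp8 KO and 2.73 and 2.49 on Arp8 OE. Their differences from WT in Arp8 KO, 0.17 and 0.21, had the direction of HARS2 at a smaller size, and on Arp8 OE they were 0.02 and 0.04.

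Serine was the case where the probes of 1 gene parted. One SARS1 probe carries an accession of a coding transcript, and in the order used above it read 3.47, 3.51, 3.44 and 3.72. The other carries a non-coding RefSeq transcript of the same gene, and it read -2.50, -2.42, -1.89 and -1.53. The latter was 0.60 above WT in Arp8 KO and 0.97 above it on Arp8 OE (1.95-fold), where the coding probe gave -0.02 and 0.26. The gaps of 0.62 and 0.71 were the only ones over 0.5 among the 8 genes with 2 probes. Over all 3044 named genes with exactly 2 probes well above background on every array the median gap was 0.18 and the 90th percentile 0.69 in Arp8 KO, so that the SARS1 gap there was inside that percentile. On Arp8 OE they were 0.16 and 0.49. The non-coding probe was below -2 on WT, where the SD of a difference was 0.169. On Arp8 KO and Arp8 OE it was above -2, where the SD was 0.082 and 0.085. Both of its differences were beyond 2 of the larger SD. Because the coding probe did not show differences of that size, the high values of the non-coding probe are not given as a change of the serine enzyme's message. For methionine, the MARS1 probes gave -0.42 and 0.00 in Arp8 KO.

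**Figure D2:**
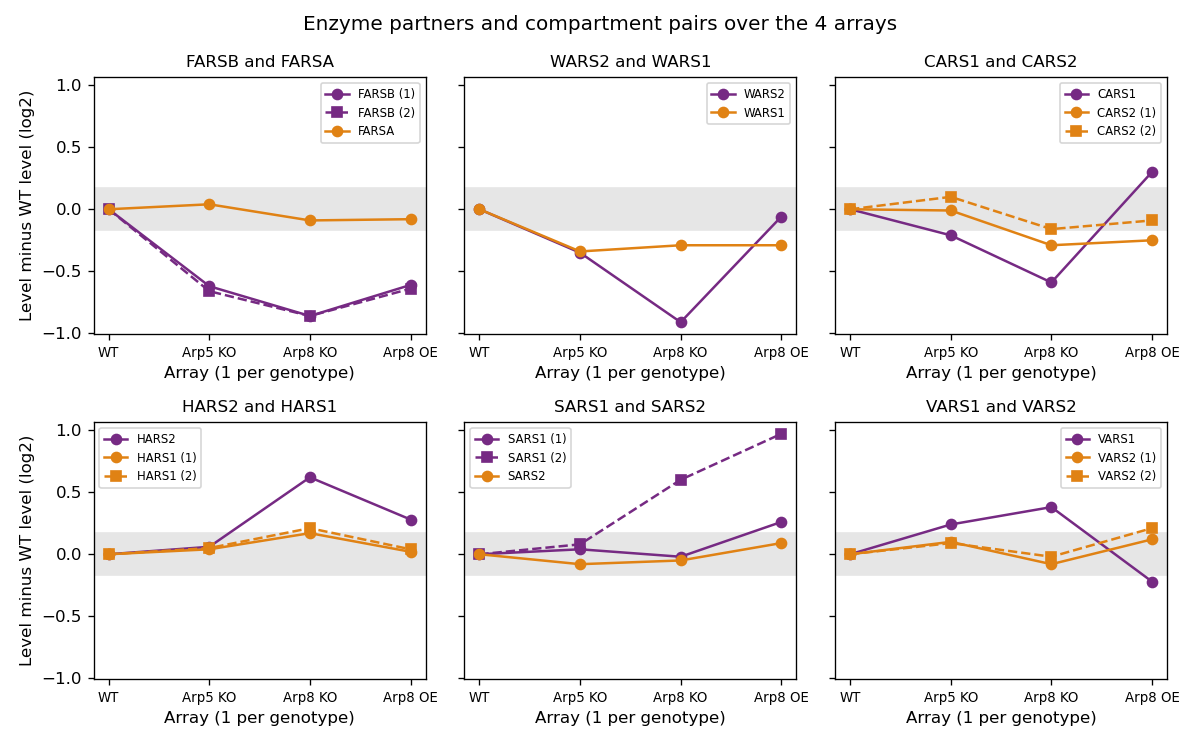
Level minus the WT level on the log2 scale (y axis) over the 4 arrays, 1 per genotype (x axis), for 6 pairs of genes: both subunits of the cytosolic phenylalanine enzyme, and the cytosolic and mitochondrial enzymes for tryptophan, cysteine, histidine, serine and valine. Gray bands span 2 technical SD (0.17) either side of WT, and second probes of a gene are dashed. FARSB falls to -0.86 while FARSA stays within the band, and HARS2 reaches 0.62 where HARS1 reaches 0.21.

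The next members were higher in Arp8 KO than on the Arp8 OE array. VARS1, the cytosolic valine enzyme, had levels of 2.04 on WT, 2.28 on Arp5 KO, 2.42 on Arp8 KO and 1.82 on Arp8 OE, so that Arp8 KO was 0.60 above Arp8 OE (1.51-fold). IARS2, the mitochondrial isoleucine enzyme, read 2.50, 2.69, 2.92 and 2.36, with Arp8 KO 0.56 above Arp8 OE. MARS2, the mitochondrial methionine enzyme, read -4.40, -3.98, -3.92 and -4.97 and was not well above background on Arp8 OE, so it was at least 1.85-fold higher in Arp8 KO than there and at least 1.33-fold lower there than on WT. PARS2, for mitochondrial proline, showed the same order on its second probe, with 0.08, 0.37, 0.38 and 0.04, and its first probe gave -0.64, -0.53, -0.45 and -0.76. NARS2, for mitochondrial asparagine, had 1.25, 1.44, 1.44 and 1.1. On Arp8 OE VARS1 differed from WT by -0.22, while IARS2 (-0.14), NARS2 (-0.15) and both PARS2 probes (-0.12 and -0.04) were within 2 technical SD of WT.

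The lysine and arginine enzymes were lowest on the Arp8 OE array and not above WT in the knockouts beyond technical error. KARS1, for lysine, read 2.05, 1.95, 1.84 and 1.61, and RARS1, for arginine, read 4.60, 4.51, 4.65 and 4.23. AARS2, the mitochondrial alanine enzyme, was lowest in Arp8 KO with 1.67, 1.5, 1.11 and 1.36. Levels of YARS2 were 1.14, 0.95, 1.39 and 0.95, highest in Arp8 KO. VARS2, the mitochondrial valine enzyme, was among the highest on Arp8 OE against WT, with 0.12 and 0.21 on its 2 probes from levels of 3.53, 3.63, 3.45 and 3.65 and of 0.98, 1.06, 0.96 and 1.19. At the other end, IARS1, for cytosolic isoleucine, varied least of all members, with 3.34, 3.30, 3.27 and 3.27.

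By compartment, the medians stayed close to those of all tested probes. In Arp5 KO the median difference from WT was -0.058 for cytosolic members, 0.063 for mitochondrial members and 0.004 for all tested probes. In Arp8 KO these were -0.018, -0.078 and 0.026, and on Arp8 OE -0.037, -0.142 and 0.000. In Arp8 KO against Arp8 OE the medians were -0.004 and 0.050, with 0.019 over all tested probes. The lowest of these, the mitochondrial median on the Arp8 OE array, came with 15 of 19 probes below WT (78.9%), where 50% of all tested probes were. By more than 2 technical SD 8 of the 19 were lower and 2 higher, beside 30.6% and 31.2% of all tested probes. Arp8 OE was the lowest of the 4 arrays for 9 of 16 mitochondrial genes (56.2%), and for 30.5% of all 11161 named genes well above background on every array. For cytosolic genes it was 5 of 19 (26.3%).

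**Figure D3:**
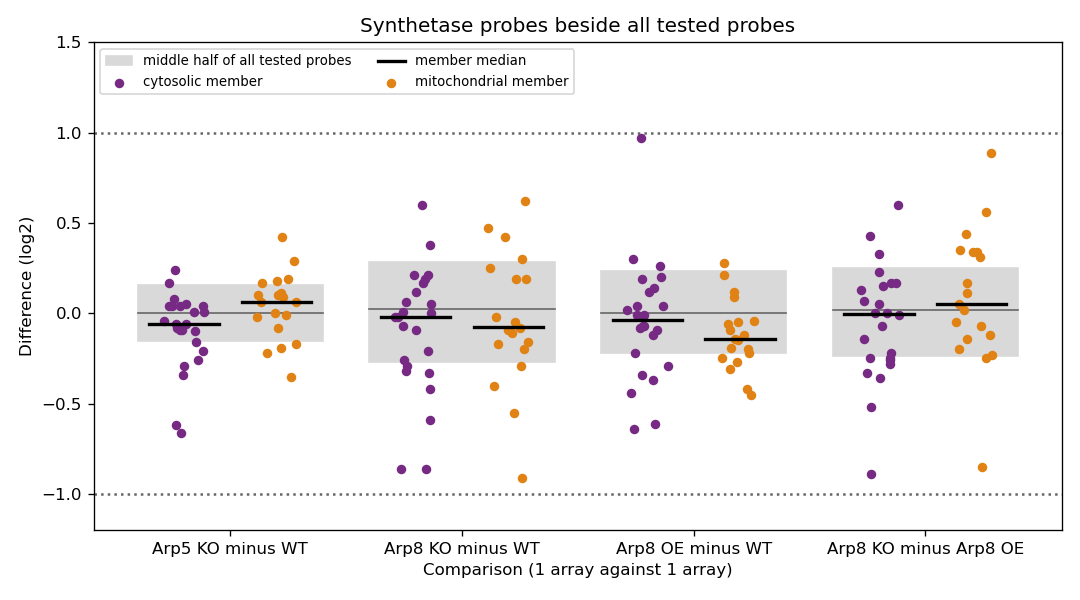
Log2 differences (y axis) of the 24 cytosolic and 19 mitochondrial member probes in each comparison of 1 array with 1 array (x axis), with black lines at the member medians. Gray boxes show the middle 50% of all tested probes with their median, and dotted lines mark 2-fold. Members lie within and outside the boxes, none passes 2-fold, and the mitochondrial median on Arp8 OE is -0.142.

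For 15 amino acids the array held both a cytosolic and a mitochondrial enzyme, and the pair could be set side by side as differences from WT, with the probes of a gene averaged. The cytosolic enzyme had the higher difference for 6 amino acids in Arp5 KO, 8 in Arp8 KO and 10 on Arp8 OE. Cytosolic minus mitochondrial, the median gap was -0.07, 0.11 and 0.14. The gap was over 0.5 in size for 1 amino acid in Arp5 KO, methionine (-0.53). It was so for 4 in Arp8 KO, methionine (-0.68), tryptophan (0.62) and tyrosine (-0.51) among them, and for 3 on Arp8 OE, serine (0.52) and alanine (0.51) among them. The methionine gaps rest on the dim MARS2 probe and the serine gap on the non-coding SARS1 probe. Both enzymes of a pair lay on the same side of WT for 5 of 15 amino acids in Arp5 KO, 7 in Arp8 KO and 9 on Arp8 OE.

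**Figure D4:**
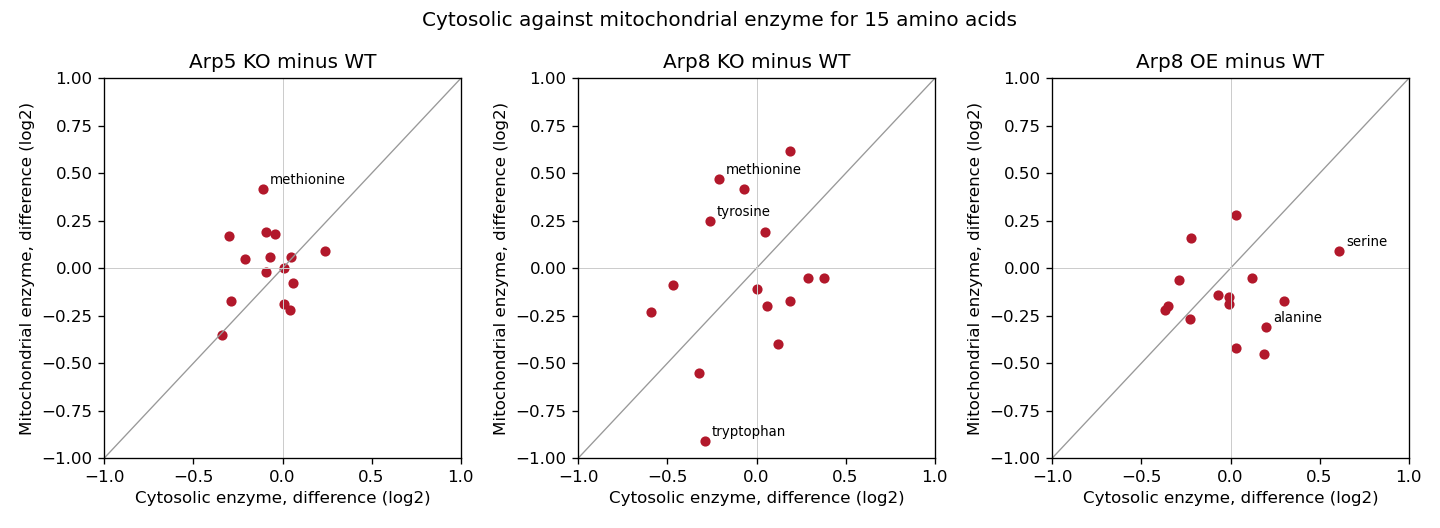
Log2 difference from WT of the cytosolic enzyme (x axis) against that of the mitochondrial enzyme (y axis) for 15 amino acids, in 3 panels of 1 array against the WT array. Points are amino acids, the diagonal marks equal differences, and the amino acids given with a gap over 0.5 in the text are named. Tryptophan lies below the diagonal in Arp8 KO (-0.29 and -0.91), and alanine below it on Arp8 OE (0.20 and -0.31).

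The function groups of the enzymes showed small medians as well. The 11 known ATF4 targets (14 probes) had a median of -0.071 in Arp5 KO, a median of -0.044 in Arp8 KO and a median of -0.008 on Arp8 OE against WT, and of -0.192 in Arp8 KO against Arp8 OE. The 8 other cytosolic genes (10 probes) had 0.039, 0.087, -0.151 and 0.162. ATF4 itself, on 2 probes, gave -0.12 and -0.04 in Arp5 KO. It gave -0.25 and -0.13 in Arp8 KO and 0.40 and 0.35 on Arp8 OE. ASNS, the asparagine synthetase and a known ATF4 target outside the family, gave -0.17, -0.10 and 0.59. In Arp8 KO against Arp8 OE these were -0.65 and -0.48 for ATF4 and -0.69 for ASNS. Of the genes with the core, CARS1 and AARS1 had the order of ATF4 over Arp8 KO, WT and Arp8 OE. GARS1, IARS1 and YARS2 did not have it, and the MARS1 probes gave -0.42 and 0.00 in Arp8 KO and -0.09 and 0.14 on Arp8 OE. The coding SARS1 probe, whose gene has a window without the core, had the order too, with -0.02 in Arp8 KO and 0.26 on Arp8 OE. Mitochondrial genes outside the ATF4 list also had it. Both VARS2 probes gave -0.08 and -0.02 in Arp8 KO and 0.12 and 0.21 on Arp8 OE, and SARS2 gave -0.05 and 0.09. Of these VARS2 and SARS2 values only the 0.21 was beyond 2 technical SD. Whether the core has a part in these values was not tested. TARS1, for threonine, did not have the order, with levels of 3.30 on WT, 3.31 on Arp5 KO, 3.49 on Arp8 KO and 3.42 on Arp8 OE. NARS1, for asparagine, read 2.03, 1.94, 2.08 and 2.03, all differences within technical error.

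The 7 members of the multisynthetase complex (9 probes) had medians of -0.058, 0.002 and -0.086 against WT, and the 12 other cytosolic genes (15 probes) 0.009, -0.089 and -0.006. Class I enzymes had -0.019, -0.066 and -0.117, and class II enzymes 0.024, -0.037 and -0.044. In Arp8 KO against Arp8 OE the complex members had 0.127 and the others -0.220, class I enzymes 0.001 and class II enzymes 0.022.

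Genes that work beside the synthetases were taken from a fixed list of 22 genes on 41 tested probes. At 2-fold 1 probe was counted in the 4 comparisons, TARS3, a second cytosolic threonine enzyme that the name pattern leaves out, which was 1.11 higher in Arp8 KO than on Arp8 OE. Its levels were -3.77, -3.33, -3.22 and -4.34, in the dim range. At 1.5-fold 0 were higher and 2 lower than WT in Arp5 KO. The counts were 1 and 1 in Arp8 KO, 0 and 1 on Arp8 OE, and 5 and 0 in Arp8 KO against Arp8 OE. Over all tested probes these shares were 4.15% and 4.69%, 10.0% and 11.2%, 7.93% and 5.67%, and 6.59% and 9.44% in the same order. EPRS1, the fused glutamate and proline enzyme, which the pattern also leaves out, gave -0.06, 0.00 and -0.19 against WT, and EARS2, the mitochondrial glutamate enzyme, gave -0.11, 0.03 and -0.47. Both brighter probes of QRSL1, a subunit of the mitochondrial amidotransferase that makes glutaminyl-tRNA, were lower in Arp5 KO, with -0.63 and -0.64, and its 2 dim probes gave -0.38 and -0.41. Scaffolds of the complex differed among themselves in Arp8 KO, where EEF1E1 gave -0.67 and AIMP2 0.49. GFM1, a mitochondrial elongation factor, was 0.66 below WT on Arp8 OE. The elongation factors that deliver charged tRNA in the cytosol (EEF1A1, EEF1B2, EEF1D and EEF1G) were above WT on 16 of 16 probes in each of the 3 comparisons, by medians of 0.104, 0.146 and 0.140. Over all tested probes 50.7%, 52.7% and 50% were above WT. These probes are of 4 genes, the comparisons share the WT array, and 1, 7 and 5 of the 16 were higher by more than 2 technical SD, beside 23.9%, 35.3% and 31.2% of all tested probes. In Arp8 KO against Arp8 OE 6 were higher and 10 lower. The largest of these differences, 0.39, 0.53 and 0.34, were all of 1 EEF1A1 probe, and EEF1A1 has many near-identical copies in the genome, so its probe values are uncertain.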

How the data were processed

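The authors deposited scanner files with the linear intensity of each spot, made with Agilent Feature Extraction 10.10.1.1 from 1-colour Cy3 arrays. Their processed signal is background-subtracted and not normalized between arrays, so 1 scaling factor per array enters every difference. The authors' series matrix, intensity equal to that signal times 1 factor per array, served as an alternative. Groups came from the genotype labels. Processed signals were divided by their 75th percentile on that array, control spots aside (647.4 to 739.6), and taken to log2. Outlier spots (69 to 76 of 43376 per array) were left out and replicate spots averaged. A probe was tested if at least 50% of its spots were well above background on at least 1 array compared, and dim values were raised to the array's lowest such signal, which makes the difference a bound. Accessions were matched to symbols through RefSeq GRCh38.p14 (27204 of 28354 probes with an accession); the file headers name hg19, so gene coordinates are given only for the RefSeq promoter windows. Members could be named, and those given on all 4 arrays were the 5 highest and 5 lowest probes of each comparison and genes whose probes differed by over 0.5. Some members count in the totals but are not reported here singly. Members, lists and alternatives were chosen with earlier results of these data known. All 4 arrays lay on 1 slide, so array position and genotype cannot be told apart. The scaling was checked on simulated data with 1 offset per array and changes well past 2-fold, so the check does not cover smaller differences such as those of the members. Alternatives used limma 3.58.1 (R 4.3.3), and other steps Python 3.11.15, numpy 2.4.6 and pandas 2.3.3. With 1 array per group the number of arrays limits the precision.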

Additional observations from a re-analysis of the deposited data

How the results depend on the processing

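Medians and counts were recomputed with other scalings (the array median, quantile, cyclic loess), normexp correction, the series matrix, other filters on dim probes, gene means, other member sets, another reference and other thresholds. Of 246 such values 233 moved by less than 1 technical SD or kept their count, and 13 moved. Some of the 233 could not move. The series matrix (20 values) differs by 1 factor per array, which the scaling removes. Counts of 0 at 2-fold stay 0 at 4-fold (8 values), and scaling to the median cannot change cytosolic minus mitochondrial. The compartment medians in Arp5 KO and Arp8 KO were below 1 technical SD (0.08) in size, so values counted as kept could still change sign. With the Arp8 OE array in place of WT, the mitochondrial median was 0.203 for Arp5 KO. That for Arp8 KO was 0.050, and cytosolic minus mitochondrial came to -0.217 and -0.054 in the same order. Without the 9 member probes beside a bright spot (21.1% of all tested probes had one), cytosolic minus mitochondrial on Arp8 OE against WT was 0.008. That gap therefore depends on which members are counted. Only the first HARS1 probe, LARS2 and RARS2 had the bright spot on WT or Arp8 OE, and the others had it on Arp8 KO. The change is thus not tied to bright spots. Without filter and floor 1 probe, MARS2, passed 2-fold higher in Arp8 KO against Arp8 OE. At 1.5-fold the counts lower were 2 in Arp5 KO, 4 in Arp8 KO, 2 on Arp8 OE and 2 in Arp8 KO against Arp8 OE, and those higher were 2 in Arp8 KO, 1 on Arp8 OE and 2 in Arp8 KO against Arp8 OE. Of 1286 values of single probes 1199 kept their value within 1 technical SD and 87 moved. Among those kept, the 172 of the series matrix could not move. With normexp the non-coding SARS1 probe gave 0.369 in Arp8 KO and 0.697 on Arp8 OE, its lowest values over the alternatives. No paired analysis was possible because each group had 1 array. Signal over background limits the values of MARS2, TARS3 and the non-coding SARS1 probe.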
